A study of Homo sapiens with 72 samples.

Results

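Miglitol is an iminosugar that mimics glucose and blocks alpha-glucosidases, the enzymes that release glucose from the ends of starch fragments and glycans. The comparison described here set all 9 wells of U2OS cells labelled as treated with miglitol against all 18 wells labelled as treated with the vehicle DMSO. These 27 wells were chosen by treatment label alone, out of 72 wells of population RNA-seq in the series. U2OS is a human osteosarcoma line. All wells were harvested after 12 h of exposure, and 3 of the miglitol wells received 100 nM, 3 received 1000 nM and 3 received 10000 nM by their labels. The study's methods give another value for the middle dose, and the labels were followed here, so every slope on dose rests on them. DMSO has no dose, and the labels do not say whether wells of 1 group came from separate cultures, so the spread between wells may be partly technical.

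In the small intestine, maltase-glucoamylase and sucrase-isomaltase sit on the brush border of enterocytes and finish the digestion of starch, and this is where miglitol acts as a drug for diabetes. Other cells hold the lysosomal enzyme GAA, which degrades glycogen, and the endoplasmic reticulum glucosidases, which trim the N-linked glycans of newly made proteins before these enter the calnexin cycle. The list of compounds supplied with the study gives GAA as a target of miglitol. It also names a sodium-coupled transporter beside the compound, described below. The comparison asks how far the transcriptome of a non-intestinal cell moved with the compound, and how small a change 9 wells could show.

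Of 10 mesenchymal and bone markers, 8 were expressed highly enough to be tested, while the collagen gene COL1A2 and the osteocalcin gene BGLAP were not. Of those tested, vimentin (VIM) had a median of 1966 TPM in the miglitol wells and 1868 TPM in the DMSO wells, and the matrix protein gene SPARC had 1876 TPM and 2137 TPM. Of 8 enterocyte markers, 4 (SI, ALPI, FABP2 and APOA4) were listed at 0 in every one of these wells, and the summed level of all 8 was 2.95 to 5.37 TPM in the miglitol wells and 2.65 to 8.33 TPM in the DMSO wells. Of 5 epithelial markers, KRT8 and KRT18 were expressed at medians of 254 TPM and 434 TPM in the miglitol wells, against 255 TPM and 358 TPM in the DMSO wells. KRT19 was too low to be tested. The summed level of all 5 had a median of 691 TPM with miglitol and 615 TPM with DMSO. KRT8 and KRT18 thus made up most of it, and EPCAM, CDH1 and KRT19 together little. The 5 blood and endothelial markers summed to at most 0.800 TPM in a miglitol well and 1.82 TPM in a DMSO well.

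Depth was even among the miglitol wells, with 33.5 to 48.7 mil expected counts. It ranged from 18.3 to 56.4 mil in 17 DMSO wells, while DMSO replicate 10 held 0.459 mil. The pooled count of calls, the range counts and the share of variance below were also computed without that well. In bulk RNA of a well, fewer cells and less RNA per cell cannot be told apart.

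Of the 8 genes of the alpha-glucosidase family, 7 were expressed highly enough to be tested and none passed the test. SI, the gene of sucrase-isomaltase, had 0 expected counts in all of these wells. Per length of transcript, GANAB, the catalytic subunit of glucosidase II, was highest with a median of 369 TPM in the miglitol wells. It was followed by PRKCSH, the second subunit of glucosidase II, at 277 TPM, MOGS, which encodes glucosidase I, at 84.2 TPM and GAA at 42.8 TPM. GANC, a neutral alpha-glucosidase, stood at 7.87 TPM. The maltase-glucoamylase gene MGAM was at 0.740 TPM and its neighbour MGAM2 at 0.120 TPM. MGAM was nevertheless above 0 in all 9 miglitol and all 18 DMSO wells, at 3.23 to 5.14 CPM with miglitol, and its log2 fold change was -0.02 with an interval from -0.21 to 0.16. The higher levels were thus those of the genes for the lysosomal and endoplasmic reticulum enzymes, and of the brush border pair MGAM was low and SI not detected.

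GAA (ENSG00000171298) lies at chr17:80101533-80119881 on the plus strand of GRCh38. Its promoter window is shown because the gene encodes a listed target and because it holds 2 copies of the sequence GTCACGTGAC, the palindrome bound by the lysosomal regulators TFEB and TFE3 and known as the CLEAR element. The window, chr17:80101331-80101630 in GRCh38.p14 from RefSeq, plus strand, runs from 250 bases before the start site to 50 bases after it.

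GAA promoter: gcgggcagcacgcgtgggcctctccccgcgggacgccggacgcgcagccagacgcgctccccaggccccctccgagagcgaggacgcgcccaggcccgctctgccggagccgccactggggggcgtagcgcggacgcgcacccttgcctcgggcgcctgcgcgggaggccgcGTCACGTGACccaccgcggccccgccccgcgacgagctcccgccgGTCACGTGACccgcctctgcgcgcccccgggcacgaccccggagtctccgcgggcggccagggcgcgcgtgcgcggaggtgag

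The capitals mark the 2 copies, which begin 78 and 33 bases before the start site. That site is the one of the RefSeq window and lies downstream of the GENCODE gene start given above. The copy nearer to the site therefore falls inside the stated span of the gene. GTCACGTGAC reads the same on both strands and is the longest such palindrome around CACGTG that both copies share, so it was read from this window itself. It was present in 124 of 35116 promoter windows of this length (0.353%), and CACGTG in 7.26% of them. Of 24 lysosomal genes on the list used here that had a window, 7 held CACGTG and 1 held the longer form. Such a match is a description of the letters only.

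GAA stood at 75.6 CPM in the lowest miglitol well, 85.8 CPM in the median and 114 CPM in the highest. The DMSO wells covered 67.3 to 120 CPM with a median of 90.7 CPM. All 9 miglitol values lay inside the DMSO range. The log2 fold change was -0.01 with a 95% interval from -0.20 to 0.17, and edgeR's quasi-likelihood test gave an adjusted p of 0.9998. In fold terms the interval ran from 0.871 to 1.13.

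**Figure D1:**
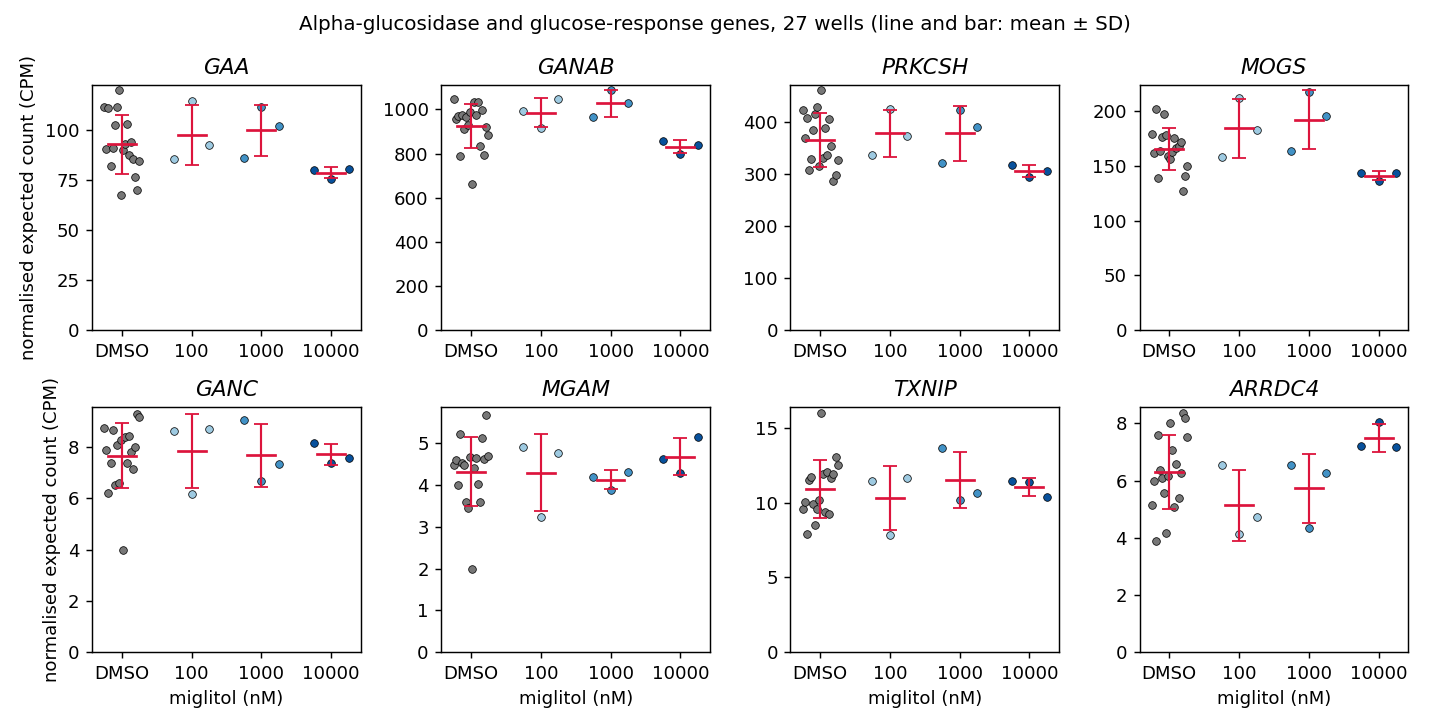
Normalised expected counts (CPM, y axis from 0) of 6 alpha-glucosidase genes and of TXNIP and ARRDC4 in each well of DMSO and of miglitol at 100, 1000 and 10000 nM (x axis). Each point is a well, and the line and bar give the mean ± SD. Every dose overlaps the DMSO wells in every panel, as for GAA, where 75.6 to 114 CPM with miglitol lie within 67.3 to 120 CPM with DMSO.

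The endoplasmic reticulum glucosidases were similarly close to DMSO. GANAB gave 800 to 1090 CPM with miglitol and 664 to 1046 CPM with DMSO, a log2 fold change of 0.03 with an interval from -0.10 to 0.17. PRKCSH gave 294 to 425 CPM against 286 to 462 CPM, a change of -0.04 with an interval from -0.21 to 0.12. MOGS gave 136 to 218 CPM against 127 to 202 CPM, a change of 0.06 with an interval from -0.10 to 0.23. Of the miglitol wells, 2 were above all DMSO wells for GANAB and 2 for MOGS, and the rest lay within the DMSO range. The lowest DMSO value of GANAB and the highest of PRKCSH were those of the shallow replicate 10. Without that well they were 789 CPM and 428 CPM.

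TXNIP and ARRDC4 are arrestin-domain genes switched on by the glucose-sensing factors MondoA and ChREBP when sugar phosphates build up in a cell. TXNIP stood at 7.86 to 13.6 CPM with miglitol and 7.94 to 15.99 CPM with DMSO. The highest DMSO value was that of the shallow replicate 10, and without it the DMSO wells reached 13.1 CPM. The log2 fold change of TXNIP was 0.03 (-0.15 to 0.22). ARRDC4 stood at 4.13 to 8.05 CPM and 3.90 to 8.35 CPM, a change of -0.03 (-0.28 to 0.23). Neither gene passed the test, and in both the groups overlapped along nearly their whole ranges.

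Across the transcriptome, 17575 genes were tested and edgeR called none of them between the pooled miglitol wells and DMSO at an adjusted p under 0.05 (0% called). At an unadjusted p under 0.05 there were 1260 genes (7.17%), of which 429 (2.44%) were higher and 831 (4.73%) lower with miglitol. DESeq2 called 2 genes, ARSJ upward and BMF downward, with adjusted p of 0.00966 and 0.0484. Of 14293 genes with a mean of at least 1 CPM, 0 had all miglitol wells above or all below the DMSO wells, with or without DMSO replicate 10. In 7789 of these genes all 9 miglitol wells lay within the range of the 18 DMSO wells, and in 5708 within that of the 17 wells without replicate 10.

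The intervals state how small an effect could be seen. The median half-width of the 95% interval was 0.24 on the log2 scale, which is 1.18-fold. For 17004 genes (96.8%) the whole interval stayed within 2-fold of no change, and for 14510 (82.6%) within 1.5-fold. Precision followed expression level. The median half-width was 0.47 for genes under 1 CPM, 0.28 from 1 to 10 CPM, 0.19 from 10 to 100 CPM and 0.17 at 100 CPM or more. A gene changing alone would have needed an estimate of 0.67 (1.59-fold) at the median to pass the adjusted threshold, and 0.47 (1.38-fold) in the most abundant class. With 3 wells of a single dose the median half-width was 0.34 (1.27-fold) and the estimate needed was about 0.98 (1.97-fold at 10000 nM). The whole interval stayed within 2-fold for 85.2%, 85.2% and 82.8% of genes at 100, 1000 and 10000 nM. It stayed within 1.5-fold for 58.7%, 58.0% and 48.4%. The pooled intervals bound the average over the doses and not the change at any single dose.

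**Figure D2:**
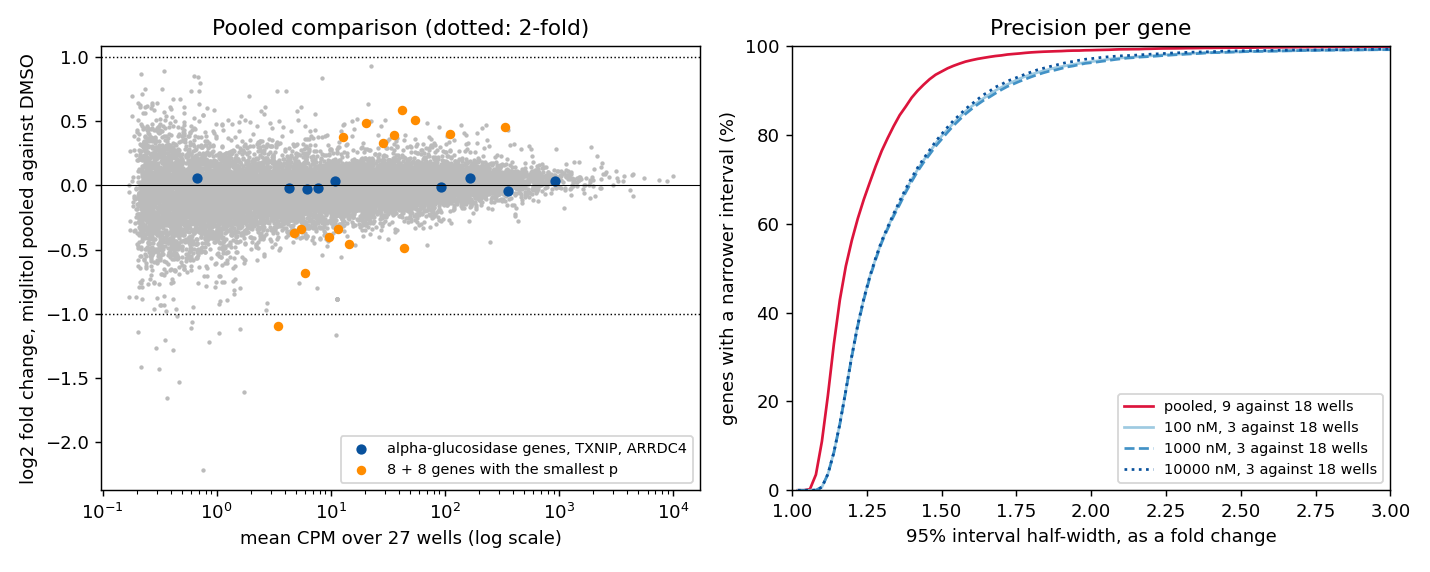
Left, log2 fold change of miglitol pooled against DMSO (y axis) by mean CPM (x axis, log scale) for the 17575 genes tested, with 2-fold marked by dotted lines. Right, percentage of genes (y axis) whose 95% interval has a half-width below the fold on the x axis, for the pooled comparison and each dose. The glucosidase and glucose-response genes lie along 0, and the pooled curve reaches its median at 1.18-fold against 1.27-fold for single doses.

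The genes nearest to the threshold are described next. The 8 with the smallest p among protein-coding genes that were higher with miglitol encode the sulfatase ARSJ, the urokinase plasminogen activator PLAU, the FGF signalling inhibitor IL17RD, the microtubule-binding kinase DCLK1, the semaphorin and VEGF coreceptor NRP1, the matrix protein TGFBI, the transglutaminase TGM2 and the ephrin receptor EPHB1. None passed edgeR's test, their adjusted p lying between 0.261 and 0.289. PLAU stood at 38.2, 59.2 and 85.3 CPM in the lowest, median and highest miglitol well and at 23.2, 35.1 and 52.9 CPM in the DMSO wells. Every miglitol well was above the DMSO median, while the ranges overlapped. The log2 fold change was 0.59 ± 0.14 (SE), with an interval from 0.31 to 0.86. By dose it was 0.58 at 100 nM, 0.93 at 1000 nM and 0.14 at 10000 nM, so the pooled value of PLAU came mostly from the lower doses. TGM2 had the same order, with 0.54 and 0.73 at the lower doses and a value within 0.01 of 0 at the highest.

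ARSJ had the smallest p of the protein-coding genes with at least 1 CPM. It gave 29.1, 32.6 and 38.9 CPM against 21.4, 26.4 and 31.2 CPM, a change of 0.33 ± 0.07 (SE). NRP1 gave 101, 137 and 161 CPM against 73.0, 99.6 and 131 CPM, a change of 0.40 ± 0.10 (SE). For the 8 genes, 8 or 9 of the 9 miglitol wells exceeded the DMSO median.

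The 8 on the lower side were BMF, whose product is a BH3-only promoter of apoptosis, the formin DAAM2, the focal adhesion adaptor LIMS2, the rhomboid RHBDL3, LDLRAD4, which dampens TGF-beta signalling, the deubiquitinase USP43, the junction protein CGNL1 and the RNA-binding CSDC2. All 9 miglitol wells were below the DMSO median for each of them, and their adjusted p was 0.261 to 0.289. BMF was the furthest from 0. It stood at 1.04, 1.81 and 2.89 CPM with miglitol and at 1.56, 4.64 and 7.99 CPM with DMSO, a change of -1.10 ± 0.24 (SE) with an interval from -1.59 to -0.61. The highest DMSO value was that of the shallow replicate 10, and without it the DMSO wells reached 7.22 CPM. By dose BMF gave -1.40, -1.47 and -0.60, the smallest change at the highest dose. LDLRAD4 gave 3.03, 3.64 and 6.19 CPM against 3.74, 6.64 and 11.1 CPM, a change of -0.68 ± 0.16 (SE). The remaining 6 genes had changes between -0.49 and -0.34. These 16 genes were picked by their p, so their sizes are a description of the extremes and not of a typical gene.

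**Figure D3:**
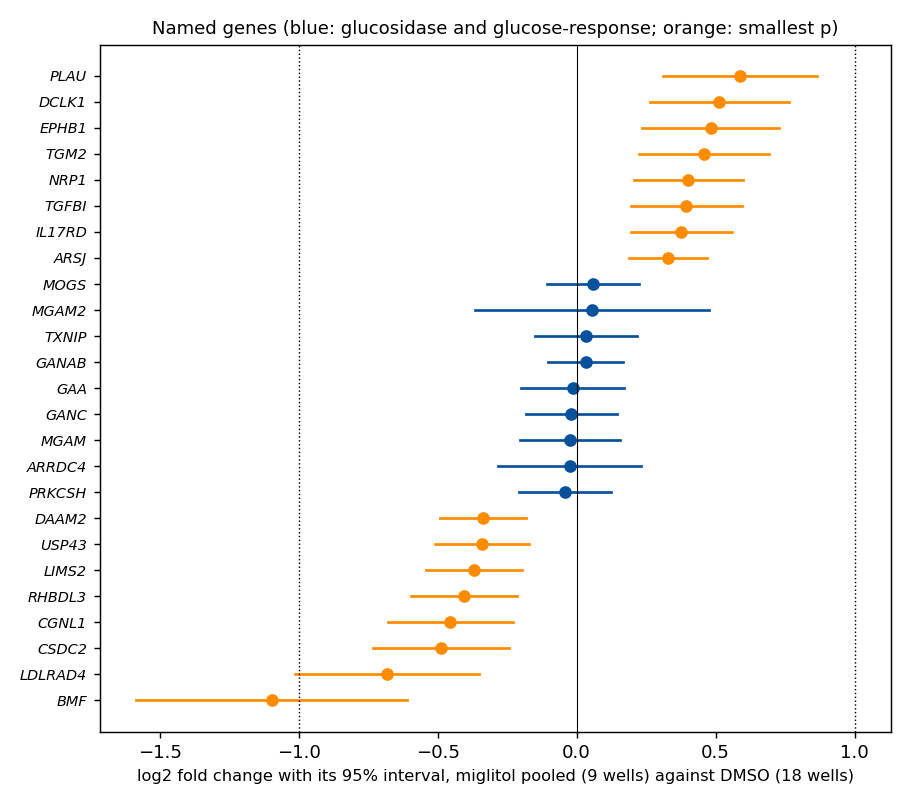
Log2 fold change (x axis) with its 95% interval for each named gene (y axis), miglitol pooled in 9 wells against DMSO in 18 wells, with 2-fold marked by dotted lines. Blue marks glucosidase and glucose-response genes and orange the 8 genes with the smallest p in each direction. BMF at -1.10 is the only named gene past 2-fold, and no gene drawn passed the adjusted test.

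No member of the 21 gene lists passed the test (0% of all genes), so the groups are described by counts and medians. The calnexin cycle list, which leaves out the glucosidases described above, holds the lectins CANX and CALR and enzymes that retag, trim or remove misfolded glycoproteins. All 19 of its genes were tested and 0 reached an unadjusted p under 0.05, beside 7.17% of all genes. At that share few genes are expected in lists of this size, so such small counts say little about a list. The median change was 0.03, beside 0.00 over all genes. Of 24 oligosaccharyltransferase and lipid-linked oligosaccharide genes, which build and attach the glycan, 0 reached that p and the median was 0.07. Of 24 genes of the unfolded protein response, TRIB3, a pseudokinase induced by stress, reached an unadjusted p of 0.0292 with a change of 0.19, and HSPA5, the chaperone BiP, changed by 0.07 with an interval from -0.13 to 0.27.

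All 36 lysosomal genes had their pooled intervals within 1.5-fold, with a median of -0.01. The cathepsin gene CTSD changed by -0.07 (-0.25 to 0.11). Of 20 glycogen genes, GYG2, a primer of glycogen synthesis, and PYGM, the muscle glycogen phosphorylase, had an unadjusted p under 0.05 with changes of -0.26 and -0.36. Over all genes 7.17% had such a p. The pooled intervals of all 20 stayed within 2-fold. Of 8 genes on a list of other glucosidases, which also holds the glucosyltransferase gene UGCG, 7 were tested. In this short list 0 reached an unadjusted p under 0.05, beside the same 7.17%.

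Of the glucose transporters and glycolytic genes none passed. Among 7 glucose transporters tested, 2 were higher and 1 lower at an unadjusted p under 0.05, beside 2.44% and 4.73% of all genes. The higher ones were SLC2A3, with a change of 0.25, and SLC2A1, and the lower one was SLC2A4 (-0.19). SLC2A1, which encodes GLUT1, stood at 163 ± 24.5 CPM with miglitol (SD, n = 9) and 144 ± 15.1 CPM with DMSO (SD, n = 18). Its change was 0.18 with an interval from 0.03 to 0.32 and an edgeR adjusted p of 0.536. Among 20 glycolytic genes, 2 were higher at an unadjusted p under 0.05, the hexokinases HK1 and HK2, and 1 lower, the enolase ENO2. HK2 changed by 0.26 (0.06 to 0.45) and ENO2 by -0.26 (-0.42 to -0.10). The sodium-coupled transporters SLC5A1 and SLC5A4, the second of which is the SGLT-3 named beside miglitol in the compound list, were too low to be tested.

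Immediate early genes are the first to be transcribed after a growth factor stimulus. Of 18 tested, 7 had an unadjusted p under 0.05 and all 7 were higher with miglitol, beside 2.44% of all genes that were higher at that p, and none passed the adjusted test. MYC stood at 184 ± 44 CPM with miglitol (SD, n = 9) and 146 ± 16.8 CPM with DMSO (SD, n = 18), a change of 0.33 with an interval from 0.14 to 0.52. CCN2, a matricellular gene, changed by 0.47 (0.21 to 0.74), and FOSL1, an AP-1 subunit, by 0.48 (0.17 to 0.80). The list's median was 0.11 pooled, and by dose it was 0.17 at 100 nM, 0.22 at 1000 nM and -0.12 at 10000 nM, so it was below 0 at the highest dose. In the remaining stress, growth and interferon lists the counts under 0.05 in either direction, beside 7.17% of all genes, were 4 of 19 p53 targets, 0 of 20 mitotic genes, 2 of 17 interferon genes, 1 of 15 heat shock genes and 1 of 19 sterol genes.

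Each dose was next set against the 18 DMSO wells. At every dose edgeR called 0 genes (0%). At an unadjusted p under 0.05 there were 1101 genes (6.26%) for the lowest dose, 1719 (9.78%) for the middle and 4565 (26%) for the highest. DESeq2 called 1, 188 and 0 genes. At 1000 nM edgeR called 501 genes with fragment length as a covariate and 449 with the axis score described below. With DMSO replicates 1 to 3 as the only controls, edgeR called 5900 genes at 10000 nM, and it called 0 at the other doses. The count at the top dose therefore depended on which DMSO wells were used.

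Within the 9 miglitol wells alone, a linear trend on log10 dose passed in 2882 of 17716 genes (16.3%), 2291 rising (12.9%) and 591 falling (3.34%). Slopes were modest, with a median of 0.44 per 10-fold dose for rising and -0.26 for falling genes, and 76 genes (0.429%) had a slope over 1 in size. ANKRD12, an ankyrin repeat protein that binds nuclear receptor coactivators, was among the 3 rising genes with the smallest p. It gave 5.50, 5.72 and 6.17 CPM at 100 nM, 5.27, 6.47 and 8.71 CPM at 1000 nM and 18.1, 18.8 and 22.8 CPM at 10000 nM, a slope of 0.90 with an edgeR adjusted p of 0.0266. The top dose stood apart from both lower doses, and these overlapped. The DMSO wells ran from 6.29 to 34.5 CPM with a median of 9.17 CPM, so they covered all 3 top-dose wells.

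ZNF816, a zinc finger gene of a large family, rose with a slope of 0.77, and HSPE1-MOB4, a read-through of its 2 neighbours that shares their reads, with 2.77. HSPE1-MOB4 gave 4.57, 6.26 and 8.95 CPM at 10000 nM. Its DMSO wells ran from 0 to 6.00 CPM, the highest being the shallow replicate 10, so they did not cover all top-dose wells. On the falling side were the ribosomal protein genes RPS21 and RPL38, which have many processed copies, and CFAP298-TCP10L, another read-through, so these counts carry some uncertainty. RPS21 gave 517, 522 and 577 CPM at 100 nM, 461, 492 and 519 CPM at 1000 nM and 351, 359 and 376 CPM at 10000 nM, a slope of -0.28. Its DMSO wells covered 256 to 617 CPM, and 288 to 617 CPM without the shallow replicate 10, a range that held all 9 miglitol wells.

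Of the 13 mRNAs of the mitochondrial genome, 11 rose with dose, by slopes between 0.41 (MT-CO1) and 1.58 (MT-ATP8), while MT-CO3 and MT-ND3 had slopes of 0.19 and 0.23 that did not pass. Of the oligosaccharyltransferase and oligosaccharide genes 10 of 24 rose and 1 fell, among them the catalytic subunit STT3B with a slope of 0.61. Of 20 mitotic genes 7 rose and 3 fell. The alpha-glucosidase genes gave 1 of 7, MGAM2, with a slope of 0.53. It stood at 0.423 to 0.619 CPM at 100 nM and 0.782 to 1.37 CPM at 10000 nM, which is near the lower limit of the assay. The DMSO wells reached 1.05 CPM, and 2 of the top-dose wells were above all of them.

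GAA, GANAB, PRKCSH and MOGS had negative slopes that did not pass (adjusted p of 0.162, 0.149, 0.136 and 0.118). GAA gave 85.6, 92.3 and 114 CPM at 100 nM and 75.6, 80.0 and 80.4 CPM at 10000 nM. For all 4 genes the 3 top-dose wells were below the 6 others and inside the DMSO range. The counts over lists are read against the 16.3% of all genes with a trend.

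The set of trend genes followed an axis along which the DMSO wells also varied. This axis was the first principal component of 17 DMSO wells, without replicate 10, and held 54.9% of their variance, against 12.4% for the next. The miglitol wells were projected on it. The wells at 10000 nM scored 30.0, 34.3 and 42.2, those at 100 nM -33.6, -13.5 and -0.185, and those at 1000 nM -34.2, -19.5 and 20.5. DMSO wells ran from -36.6 to 48.2, and 3 of them scored above the lowest top-dose well. So miglitol wells spanned the DMSO range without passing beyond it, and the top dose filled its upper end.

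**Figure D4:**
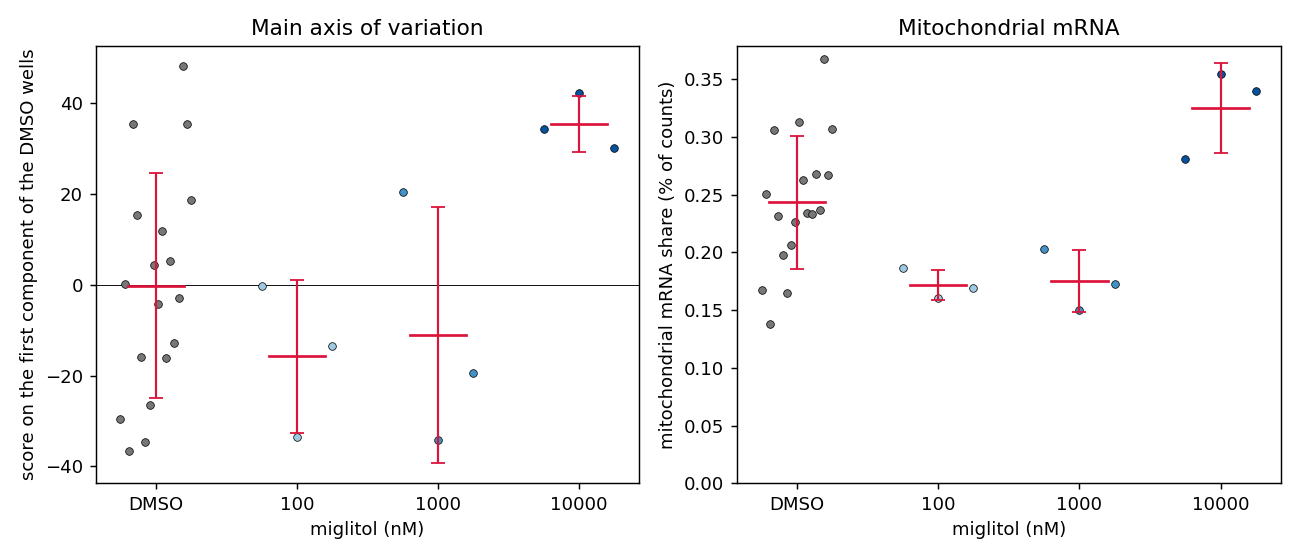
Score on the first principal component of the DMSO wells (left, y axis) and mitochondrial mRNA share in % of expected counts (right, y axis) for each well of DMSO and of miglitol at 100, 1000 and 10000 nM (x axis), with mean ± SD. The 3 wells at 10000 nM lie between 30.0 and 42.2 on the axis, inside the DMSO range of -36.6 to 48.2.

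The mitochondrial mRNA share moved with that score. It was 0.281%, 0.340% and 0.355% at 10000 nM, 0.150% to 0.203% at 1000 nM and 0.161% to 0.186% at 100 nM. The DMSO wells covered 0.138% to 0.367%. The top dose was above both lower doses in all 3 wells (exact permutation p = 0.0119, the smallest that 84 splits allow, and 0.139 after adjustment over 35 tests). Against DMSO the exact two-sided p was 0.0504 at 100 nM (adjusted 0.252), 0.0662 at 1000 nM (adjusted 0.290) and 0.0286 at 10000 nM (adjusted 0.200). The means were 0.172%, 0.175% and 0.325%, so the lower doses lay below the DMSO mean and the top dose above it. For all 9 wells, which average these opposite shifts, the exact p was 0.481, with means of 0.224% ± 0.0797 (SD, n = 9) and 0.243% ± 0.0579 (SD, n = 18).

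Over the same wells, the number of genes detected, the inferred fragment length and the spike-in share did not pass either in the pooled comparison (exact permutation p of 0.538, 0.434 and 0.112). At 10000 nM, 25674 to 26729 genes had a count above 0, and at the lower doses 23785 to 25226. The axis also ran with library properties. Over the 17 DMSO wells its score correlated with the inferred fragment length (Pearson's r = 0.72, permutation p = 0.0009; Spearman's rho = 0.81, p = 0.00015) and with depth (r = 0.65, p = 0.0047; rho = 0.67, p = 0.0036). Without the 2 wells farthest from the median, r was 0.87 and 0.60. Over the 9 miglitol wells r was 0.63 for fragment length (exact p = 0.054; rho = 0.62, p = 0.086) and 0.71 for depth (exact p = 0.023; rho = 0.78, p = 0.017), falling to 0.49 and 0.41. Adjusted over these 4 relations, the p of r was 0.0036, 0.0094, 0.054 and 0.031, and that of rho was 0.0006, 0.0072, 0.086 and 0.023.

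Of the 2862 trend genes also tested in the pooled comparison, 2847 (99.5%) loaded on the axis with the sign of their slope, beside 86.3% of all genes. In 79.4% of trend genes, and in 82.2% of all genes, the 3 top-dose wells lay within the range of the 17 DMSO wells. Rising genes had a median GC content of 40.5% and falling genes of 55.1%, beside 49.5% over all genes tested. The median rising gene stood 0.42 to 0.61 above the DMSO mean on the log2(CPM + 1) scale in the top-dose wells, and DMSO replicates 4, 16 and 17 stood 0.53, 0.69 and 0.44 above it. The part of fragment length, depth and base composition in the trend was not tested.

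**Figure D5:**
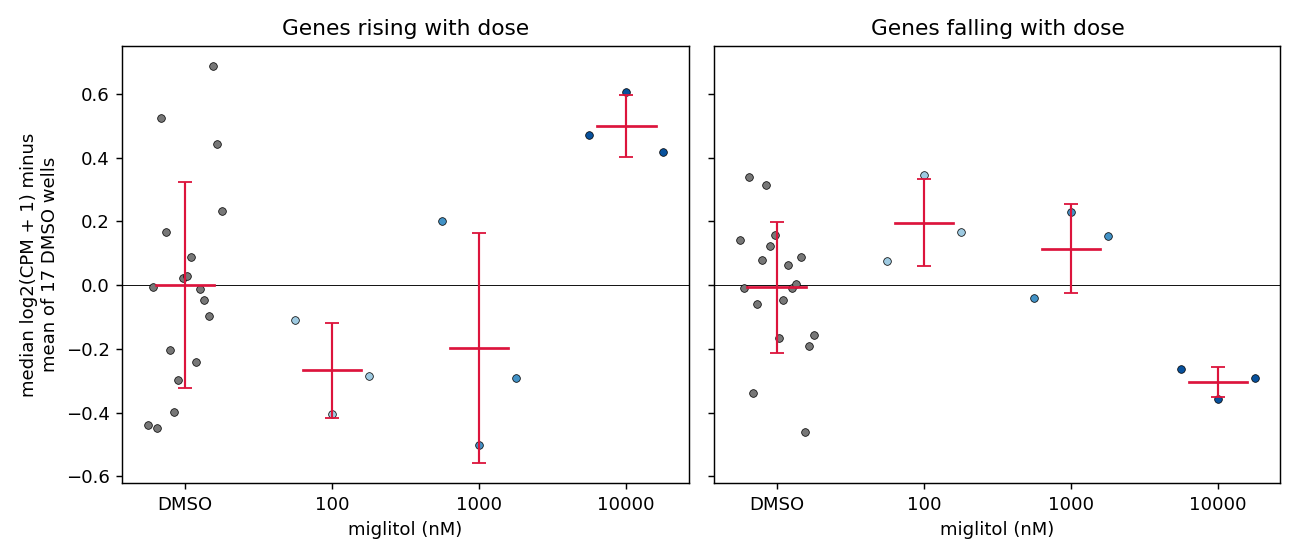
Median log2(CPM + 1), minus the mean of 17 DMSO wells, over the genes that rose (left) or fell (right) with miglitol dose, for each well of DMSO and of miglitol at 100, 1000 and 10000 nM (x axis), with mean ± SD. The genes were chosen by their trend in the miglitol wells, and DMSO replicates 4, 16 and 17 reach 0.53, 0.69 and 0.44 on the left, level with the wells at 10000 nM.

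The axis score and the mitochondrial share are computed from the same counts as the trend, and the wells at 10000 nM held the highest values of both among the miglitol wells, so dose and these measures cannot be told apart in 9 wells. Fits with either as a covariate gave 0 trend genes, which therefore says nothing about a dose effect, and a fit with fragment length gave 1. A trend over the rank of dose with the DMSO wells as the lowest rank gave 0. The 2882 genes also depended on single wells. Leaving out any 1 of the wells at 10000 nM left 1, 1 or 3 genes, and leaving out replicate 2 or 3 at 100 nM left 1. Without replicate 1 at 100 nM there were 6124, and without replicates 1, 2 or 3 at 1000 nM there were 2037, 6085 and 2719.

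The distance between groups was also taken over all genes at once. Between pooled miglitol and DMSO wells lay 2.85% of the variance in log2(CPM + 1) (exact one-sided permutation p = 0.61 over 4686825 splits). Without DMSO replicate 10 it was 3.35% (exact p = 0.421). By dose, without that well, the shares were 6.40% (exact p = 0.259), 6.38% (exact p = 0.266) and 15.5% (exact p = 0.0325) at 100, 1000 and 10000 nM. Between the top dose and both lower doses lay 55.4% (exact p = 0.0119, the smallest that 84 splits allow). The shares by dose and between doses were not among the planned comparisons, and none of these p was adjusted for their number.

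The axis score was also used as a covariate in the pooled comparison, a fit chosen after the data were seen and with a score computed from the same wells. The median half-width of the intervals narrowed from 0.24 to 0.14, and edgeR called 162 genes (0.922%), 66 higher and 96 lower, with a median size of 0.30. All 16 genes named above for their p were among them, BMF at -1.12 (adjusted p = 0.0354) and ARSJ at 0.32 (adjusted p = 0.0304). SLC2A1 (0.17, adjusted p = 0.0483) and MYC (0.32, adjusted p = 0.0369) rose and ENO2 fell (-0.23, adjusted p = 0.0317) in this fit. The alpha-glucosidase genes, TXNIP and ARRDC4 gave 0 calls in it. A size over 1 was reached by 3 genes, BMF, DOC2B, a calcium sensor of exocytosis, and MYOCD, a cardiac and smooth muscle coactivator, all lower.

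The other compounds give a scale for these counts. Each was used in 9 wells at the same doses and compared with the same 18 DMSO wells, so the counts share their controls. edgeR called 533 genes for pyrazolanthrone, a JNK inhibitor (3.07%), 883 for the AKT inhibitor MK-2206 (5.04%), 2332 for the kinase inhibitor nilotinib (13.3%), 12710 for the transcription inhibitor triptolide (73.6%) and 13764 for the translation inhibitor homoharringtonine (76.7%), beside 0 for miglitol. The triptolide wells included replicate 2 at 100 nM with 0.0704 mil expected counts. Its replicate 3 and replicates 1 and 2 at 1000 nM held 10.4, 9.52 and 10.7 mil. The triptolide count was not computed without these wells. A direct test, 9 wells against 9, gave 375 genes between nilotinib and miglitol (2.19%) and 26 between MK-2206 and miglitol (0.151%). Between pyrazolanthrone and miglitol edgeR called 0 (0%), with 734 at an unadjusted p under 0.05 (4.31%). So pyrazolanthrone had calls against DMSO and none against miglitol. The direct test had 9 wells for comparison in place of 18, so it resolved less. Its counts are therefore not on the same scale as those against DMSO. A count of 0 in it does not show that the compounds act alike.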

How the data were processed

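Population RNA-seq of 72 wells of U2OS cells was used. The authors prepared stranded poly(A) libraries and ran RSEM; the submitters' processing notes also name HTSeq, DESeq2 and GRCh38, and versions are not given in the sources used here. Expected counts, as deposited, estimate with RSEM how many reads belong to a gene, without normalization. TPM, also computed by the authors, divide these by transcript length and bring every well to a fixed sum, and the deposited transcript and effective lengths (other values) gave the inferred fragment length of genes of at least 3000 bases. The files list 60371 rows, of which 92 are spike-in controls; these took 0.0414% to 0.156% of counts in miglitol wells and were left out of library sizes and tests.

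Expected counts were rounded and tested in R 4.3.3 with edgeR 4.0.16 (filterByExpr with a smallest count of 10, TMM, glmQLFit and glmQLFTest, Benjamini-Hochberg adjustment, threshold 0.05) and, as an alternative, DESeq2 1.42.0. CPM are expected counts divided by the TMM-scaled library size. Doses were fitted as 4 groups, and trends on log10 dose over the 9 miglitol wells. Standard errors and intervals come from the fitted weights and moderated dispersions. Scripts were tested on simulated counts. Exact permutation tests used Python 3.11.15, and a permutation test with 100000 resamples was used for relations over 17 wells. Symbols and positions came from GENCODE release 44 (GRCh38).

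Groups and replicate numbers are those of the labels, and no 2 wells of a group agreed within sampling noise. Alternatives were other scalings and filters, each well left out, a replicate block, the spread of all 72 wells, and covariates; several were added after the data were seen. The named genes are the alpha-glucosidase list, TXNIP and ARRDC4, the 8 protein-coding genes of at least 1 CPM with the smallest p in each direction where none was called, and the 3 with the smallest p in each direction of the trend. DOC2B, MYOCD and members named from lists were chosen after their values were seen. The wells, lists and rules were chosen with earlier results of these data known.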

Additional observations from a re-analysis of the deposited data

Results flagged for a closer look

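In LIMS2, 1 of the 9 miglitol wells stood apart: 100 nM replicate 1 at 4.75 CPM, while the other 8 wells lay between 3.69 and 4.18 CPM. This well was the nearest to the DMSO median of 5.04 CPM. Of 38 sets of values examined in this way it was the 1 that stood apart, and chance sets a well apart in about 1 in 20 such groups.

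The dose trend differed from the comparison of all doses with DMSO. edgeR found a trend in 2882 genes among the miglitol wells, while edgeR without a covariate called 0 genes at each dose against the 18 DMSO wells (DESeq2 called 1, 188 and 0). The wells at 10000 nM had the higher mitochondrial mRNA share, 0.281% to 0.355% against 0.150% to 0.203% at the lower doses. That share is part of the measured trend and was higher in every top-dose well, so it and dose cannot be told apart.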

How the results depend on the processing

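The pooled count of 0 was kept under both other scalings, both other filters, a fragment length or mitochondrial share covariate, the spike-in rows kept and the block. It became 2 with DESeq2 (1 past 2-fold, BMF), 91 with the spread of all 72 wells (6 past 2-fold), 162 with the axis covariate (3 past 2-fold) and 245 with that covariate and without DMSO replicate 10 (4 past 2-fold: BMF, DOC2B, MYOCD and ENSG00000259774). Leaving out single wells gave 0 to 1 called and 0 to 1 past 2-fold, the gene being DOC2B without replicate 1 at 1000 nM. By dose, DESeq2 called 1 gene at 100 nM (ENSG00000267459) and 188 at 1000 nM, and at 1000 nM the fragment length covariate gave 501 and the axis covariate 449. Replicate numbers did not pair the wells: deviations of same-numbered wells correlated between -0.602 and 0.718 (mean 0.003), those of other pairs between -0.71 and 0.671. With the replicate block, which keeps only DMSO replicates 1 to 3, the call at 10000 nM was 5356 and without the block in the same wells 5900. The block gave 3446 trend genes and changed no other call. The trend count was 5040 with DESeq2 (2919 rising, 2121 falling), 1 with the fragment length covariate, 0 with the axis or mitochondrial share covariate, 0 over the rank of dose, and 1 to 6124 with single wells left out; the gene left in every case with 1 was ENSG00000277801. The median half-width was 0.176 for genes with at least 10 counts in every well, 0.395 with the block, 0.264 with the spread of all wells and 0.140 with the axis covariate. That covariate gave 2441 genes for pyrazolanthrone, 5618 for nilotinib and 2779 for MK-2206 against DMSO, and 2580 for nilotinib and 742 for MK-2206 against miglitol. The causes were not tested. The shallow DMSO replicate 10 limits what its own low genes show, and levels under 1 CPM rest on few reads.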

Other observations

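The median mitochondrial mRNA share was also highest at the top dose of each of the other compounds. For pyrazolanthrone it was 0.172% to 0.196% at 100 nM, 0.149% to 0.231% at 1000 nM and 0.278% to 0.321% at 10000 nM. For nilotinib it was 0.112% to 0.250%, 0.146% to 0.257% and 0.350% to 0.388%. For MK-2206 the ranges were 0.151% to 0.274%, 0.158% to 0.278% and 0.238% to 0.323%, and those of the lower doses reached into that of the top dose. Homoharringtonine gave 0.184% to 0.228%, 0.156% to 0.285% and 0.246% to 0.284%, and triptolide 0.521% to 0.630%, 0.771% to 1.09% and 1.01% to 1.15%. For both of these compounds the range at 1000 nM overlapped that at 10000 nM. The labels give no position of a well, so dose and position or order of handling cannot be told apart.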
